A study of Sus scrofa with 6 samples.

Results

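Elastic fibre and microfibril genes were followed in longissimus muscle, the long muscle of the back, of pigs (Sus scrofa) with high and with low intramuscular fat. The genes were chosen by name from a deposited table of 7661 gene records, as records named for elastin, the fibrillins, the fibulins, the microfibril-associated proteins, the latent TGF-beta binding proteins, the EMILINs or the lysyl oxidases, and 12 of the 7661 records were found. They were ELN, FBN1, MFAP4, MFAP5, FBLN1, FBLN5, EFEMP1, EFEMP2, LTBP1, LTBP3, EMILIN2 and LOXL3, each with 1 record. These families, and the gene lists used further below, were chosen with earlier results of these data known. The high and the low group held 3 libraries each, 1 per pig, made from RNA of freshly taken muscle, and the groups were labelled by fat content alone. The labels give neither the breed, sex and age of the pigs nor their fat percentage.

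Elastic fibres let tissue recoil after stretch. They have a core of cross-linked elastin laid on a scaffold of microfibrils, which are built of fibrillin, and fibulins and other glycoproteins bring the elastin onto the scaffold while lysyl oxidases cross-link it. Microfibrils also hold TGF-beta in latent form through the latent TGF-beta binding proteins. In skeletal muscle these fibres lie in the connective tissue around muscle fibres and bundles and in vessel walls, and their genes are transcribed in fibroblasts and smooth muscle cells more than in muscle fibres.

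Libraries held between 25371989 and 34813172 reads. Every low library was deeper than every high one, with at least 30139025 reads against at most 28874691. Levels are given as CPM, the read count of a gene per 1e+06 reads in its library, as deposited, and a gene was listed only where it exceeded 10 CPM in at least 3 libraries, so members of these families below that level were not analysed here. CPM is not scaled by transcript length, so levels were compared between libraries and not between genes. Counts for the 12 records lay between 190 (ELN, low library 3) and 5044 (FBN1, high library 2), and the counting error of the lowest was 7.25% of its value. Fold changes are log2 values, high minus low, from edgeR's quasi-likelihood fit to all 7661 records, with p-values adjusted over all of them. In whole muscle, more cells of a type and more RNA per cell cannot be told apart.

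No elastic fibre or microfibril record passed an adjusted p of 0.05 in edgeR's quasi-likelihood test (0 of 12, with 0.144% of all records called), and 6 of 12 had an unadjusted p under 0.05, all with higher values in the high group (10.2% of all records in that direction). The call depended on the test. DESeq2 called 5 of 12 (FBN1, MFAP4, ELN, EFEMP1 and FBLN1; 6.76% of all records) and edgeR's exact test 4 of 12 (the same without FBLN1; 4.12% of all records), whereas limma-voom called 0 of 12 (0.104% of all records). Of the 12 records, 10 had a positive fold change, against 45.2% of all records. Their median was 0.53, against -0.04 over all records. The 3 high libraries lay above the 3 low ones without overlap in 6 of 12 records (10.4% of all records) and below them in 1 of 12 (13.7% of all records). For ELN the rule for listing a gene set this order, since all 3 of its high libraries and none of its low libraries exceeded 10 CPM, as in 71 of the 7661 records. Without such records 5 of 11 had high libraries wholly above low ones (9.6% of the other 7590 records), and the median of the 11 was 0.46. A positive fold change was found in 9 of the 11, against 3391 of the other 7590 records. The 5 were FBN1, FBLN1, FBLN5, EFEMP1 and the record listed as MFAP4, whose position goes against its name, as given below. ELN is also in the counts above by unadjusted p, by DESeq2 and by the exact test.

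**Figure D1:**
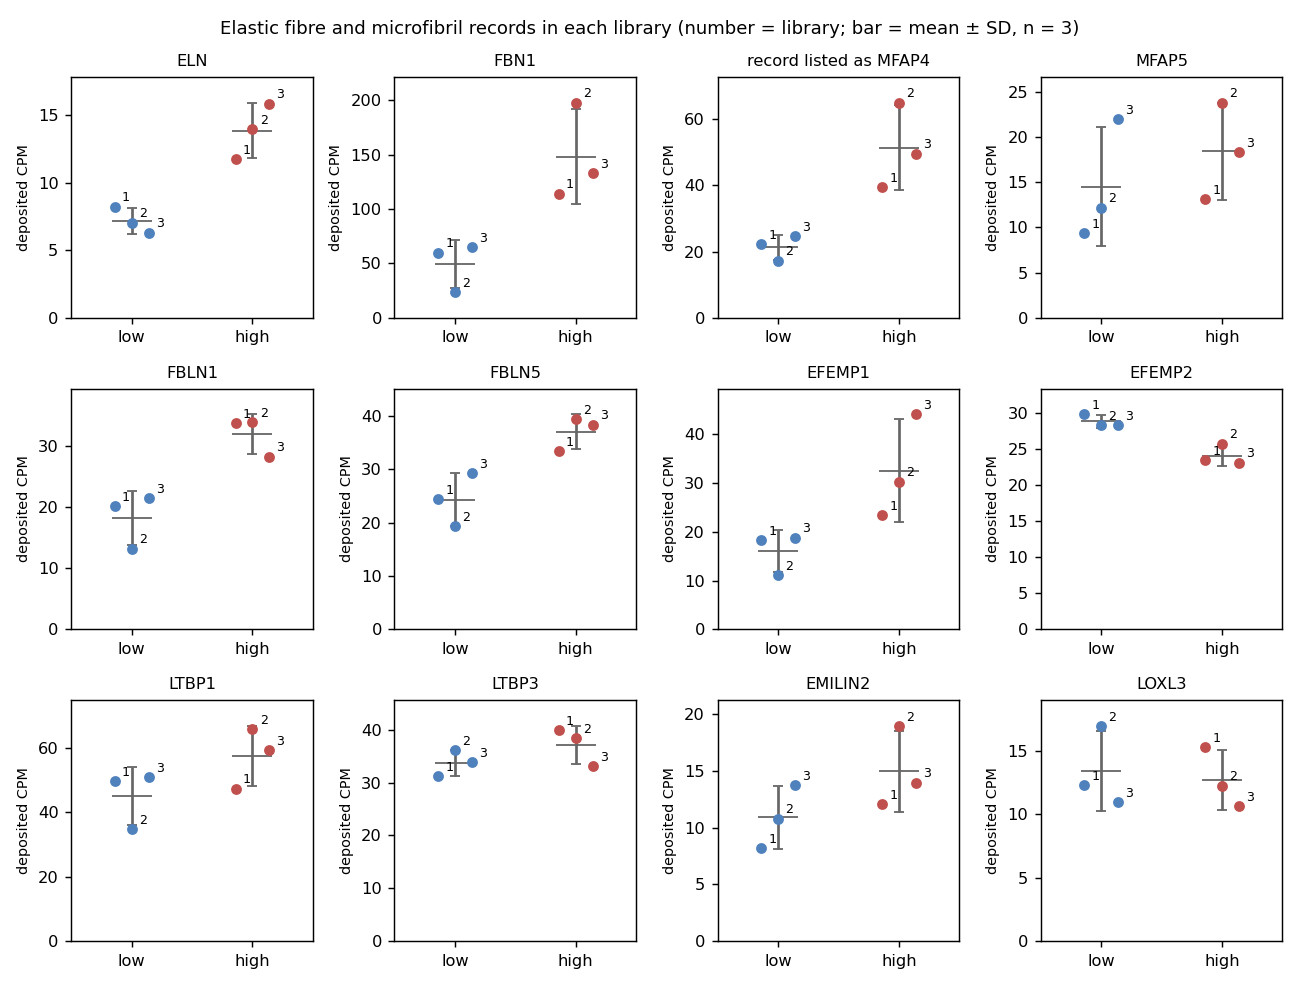
Deposited CPM (vertical axes, from 0) of the 12 records in the low and high libraries, with the library number beside each point and the mean ± SD (n = 3) as grey bars. ELN, FBN1, the record listed as MFAP4, FBLN1, FBLN5 and EFEMP1 have all 3 high libraries above all 3 low libraries, EFEMP2 has them below, and the groups overlap in the other 5 panels.

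ELN encodes tropoelastin, the soluble monomer that is cross-linked into the elastic core. Its record (ENSSSCG00000025858, chromosome 3, 10929442 to 10935871, minus strand) stood at 11.7, 13.96 and 15.8 CPM in high libraries 1 to 3 and at 8.22, 7.01 and 6.30 CPM in low libraries 1 to 3. Every high library lay above every low library. ELN was listed through its high libraries alone, as no low library exceeded 10 CPM, so this order was set by the listing rule and its mean CPM was bound to be higher in the high group. Between groups the log2 fold change was 0.96 (SE 0.17, quasi-likelihood adjusted p = 0.0921), or 1.95-fold, with 13.8 ± 2.04 against 7.18 ± 0.966 CPM (SD, n = 3 per group). With each library left out in turn the log2 fold change stayed between 0.86 and 1.08.

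The elastin record was the shortest of the 12 in genomic span, at 6.43 kb, and how much of the elastin gene it covers was not tested. LIMK1, a kinase gene, was the nearest listed record, 534 bases away on the other strand, and had a log2 fold change of -0.33 (SE 0.17, quasi-likelihood adjusted p = 0.333), opposite in sign to ELN. In the table as a whole, fold changes followed genomic span. The records of the span decile that holds ELN had a median of -0.17 and those of the longest decile 0.22. With this trend removed, ELN stood at 1.11 (SE 0.18, quasi-likelihood adjusted p = 0.0846).

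FBN1 encodes fibrillin-1, the main building block of microfibrils, whose C-terminal end is released as the hormone asprosin. Its record (ENSSSCG00000004658, chromosome 1, 137103320 to 137303566, plus strand) had 114, 198 and 133 CPM in high libraries 1 to 3 and 59.9, 23.8 and 64.8 CPM in low libraries 1 to 3. High library 2 was the highest and low library 2 the lowest, and the groups did not overlap. This was the largest fold change of the 12, 1.57 (SE 0.40, quasi-likelihood adjusted p = 0.139), or 2.96-fold, and it was the 18th highest among all 7661 records. The spread within groups was wide as well, with 148 ± 43.8 against 49.5 ± 22.4 CPM (SD, n = 3 per group). Without low library 2 the log2 fold change was 1.21, and with the span trend removed it was 1.30. The authors' deposited table gives FBN1 a false discovery rate of 0.00113.

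The fold change of FBN1 was larger than that of ELN, but the difference did not exceed the spread between libraries. The ratio of FBN1 to ELN within a library was 9.71, 14.2 and 8.42 in high libraries 1 to 3 and 7.29, 3.39 and 10.3 in low libraries 1 to 3, so the groups overlapped. Low library 2 had the lowest ratio and high library 2 the highest.

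Microfibril-associated proteins bind fibrillin from outside. MFAP5, also known as MAGP-2, binds fibrillin and Notch ligands. Its record (ENSSSCG00000000666, chromosome 5, 65575791 to 65589682) stood at 13.1, 23.8 and 18.3 CPM in high libraries 1 to 3 and at 9.36, 12.2 and 21.9 CPM in low libraries 1 to 3. Low library 3 was above 2 of the 3 high libraries, and the log2 fold change of 0.33 (SE 0.36, quasi-likelihood adjusted p = 0.639) was smaller than its standard error. It was 0.84 without low library 3, 0.10 without low library 1, 0.13 without high library 2, 0.18 without low library 2 and 0.52 without high library 1.

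The record listed as MFAP4 (ENSSSCG00000025712, chromosome 7, 27917361 to 27937335, minus strand) stood at 39.4, 64.9 and 49.6 CPM in high libraries 1 to 3 and at 22.1, 17.2 and 24.6 CPM in low libraries 1 to 3. All high libraries lay above all low libraries. The log2 fold change was 1.26 (SE 0.23, quasi-likelihood adjusted p = 0.0921), or 2.40-fold, with 51.3 ± 12.8 against 21.3 ± 3.77 CPM (SD, n = 3 per group), and it lay between 1.09 and 1.44 with each library left out. MFAP4 is a fibrinogen-like glycoprotein that binds elastin and fibrillin.

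The position of that record goes against its name. In the deposited table it begins 2079 bases from a record of TNXB (ENSSSCG00000001429, 27939414 to 27958858) on the same strand, and the next gene beyond TNXB is CREBL1, an older name of ATF6B. In the RefSeq annotation of Sscrofa11.1, TNXB lies between CYP21A2 and ATF6B, whereas MFAP4 lies elsewhere, between RNF112 and MAPK7. An Ensembl name table gives MFAP4 to another identifier, which is not among the 7661 records, and does not hold the identifier of this record. The name table also gives MFAP5 to an identifier outside the 7661 records, but the MFAP5 record lies on chromosome 5 with PHC1 among its nearest listed records, and RefSeq too places MFAP5 near PHC1. TNXB encodes tenascin-X, a large matrix protein that binds collagen and elastic fibres and ends, like MFAP4, in a fibrinogen-like domain. The record is therefore called the record listed as MFAP4 here, and its values cannot be assigned to that gene with the sources used.

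The adjacent TNXB record had the same order of groups. It stood at 31.5, 56.97 and 38.96 CPM in high libraries 1 to 3 and at 13.9, 9.31 and 19.01 CPM in low libraries 1 to 3, and high library 2 was highest and low library 2 lowest in both records. Its log2 fold change was 1.58 (SE 0.32, quasi-likelihood adjusted p = 0.108). Across the 6 libraries, the log2 CPM of this TNXB record and of the record listed as MFAP4 had a Pearson r of 0.995. This describes 6 points, and within each library the 2 records share depth and normalisation. Their ratio, the record listed as MFAP4 over this TNXB record, was not constant. It was 1.25, 1.14 and 1.27 in high libraries 1 to 3 and 1.59, 1.85 and 1.29 in low libraries 1 to 3, lower in the high group without overlap. A second TNXB record on the other strand (ENSSSCG00000023611, 27681441 to 27723570) had 0.66 (SE 0.15, quasi-likelihood adjusted p = 0.116). The 13 other records within 350 kb had log2 fold changes between -0.38 and 0.50, and the smallest of their quasi-likelihood adjusted p-values was 0.204. Records of 1 gene can share reads. Leaving out the record listed as MFAP4, a step chosen after seeing the data, left 0 of 11 called and a median of 0.46.

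**Figure D2:**
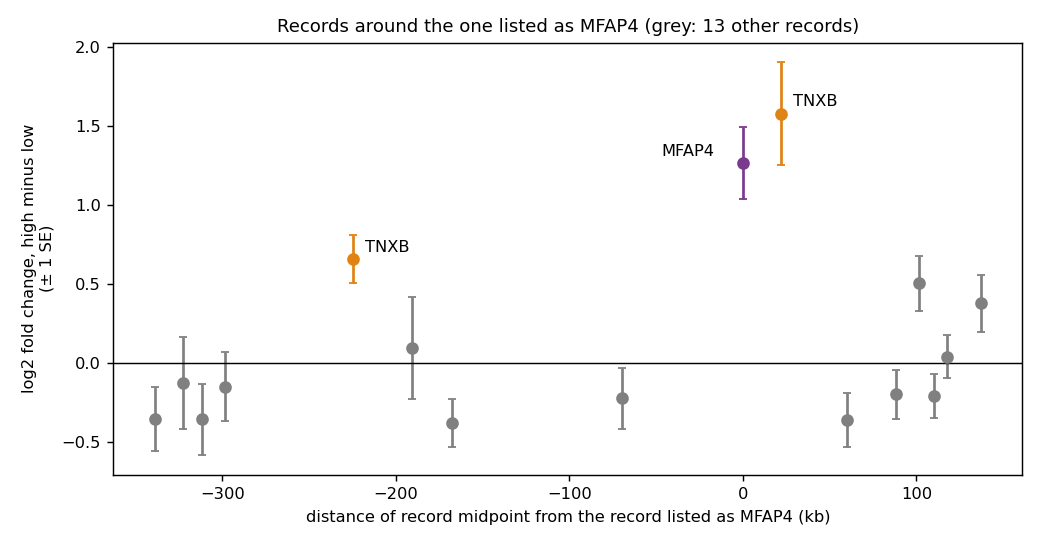
Log2 fold change, high minus low (vertical axis, ± 1 SE), of the records around the one listed as MFAP4, against the distance of their midpoints from it in kb (horizontal axis). The record listed as MFAP4 (1.26) and both TNXB records (1.58 and 0.66) lie above the 13 grey records, which span -0.38 to 0.50.

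Fibulins are calcium-binding glycoproteins that join elastin to microfibrils and to basement membranes. FBLN1 (fibulin-1, ENSSSCG00000000010, chromosome 5, 1071720 to 1158793), found in the elastic core and in basement membranes, stood at 33.8, 33.99 and 28.3 CPM in high libraries 1 to 3. The low libraries 1 to 3 had 20.2, 13.3 and 21.5 CPM, all below the lowest high library. On the log2 scale the fold change was 0.81 (SE 0.23, quasi-likelihood adjusted p = 0.157), and it was 0.59 without low library 2, the lowest one. DESeq2 gave an adjusted p of 0.0274, and the false discovery rate in the authors' deposited table is 0.0518.

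FBLN5 (fibulin-5, ENSSSCG00000002444, chromosome 7, 120031685 to 120114530), which tethers elastin to cells through integrins and recruits it to microfibrils, showed the same order of groups. It stood at 33.4, 39.4 and 38.4 CPM in high libraries 1 to 3 and at 24.4, 19.3 and 29.3 CPM in low libraries 1 to 3. The gap between the lowest high and the highest low library was small beside the range of the low group. Between groups the log2 fold change was 0.61 (SE 0.20, quasi-likelihood adjusted p = 0.190), or 0.43 with the span trend removed or without low library 2.

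EFEMP1 and EFEMP2, which encode fibulin-3 and fibulin-4, had fold changes of opposite sign. EFEMP1 (ENSSSCG00000008397, chromosome 3, 90132132 to 90197713), a fibulin of fascia and other loose connective tissue that binds the protease inhibitor TIMP3, stood at 23.4, 30.3 and 44.1 CPM in high libraries 1 to 3. It had 18.3, 11.1 and 18.8 CPM in low libraries 1 to 3, so that the groups did not overlap although the high libraries differed widely among themselves. The log2 fold change was 1.02 (SE 0.30, quasi-likelihood adjusted p = 0.163), or 2.02-fold, and it was 0.73 without high library 3. The authors' deposited table gives EFEMP1 a false discovery rate of 0.0269.

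EFEMP2 (ENSSSCG00000012971, chromosome 2, 5558977 to 5570871), the fibulin that brings lysyl oxidase to tropoelastin, stood at 23.4, 25.7 and 23.03 CPM in high libraries 1 to 3 and at 29.7, 28.3 and 28.3 CPM in low libraries 1 to 3. It was the 1 record of the 12 in which all high libraries lay below all low libraries. The difference was small, with a log2 fold change of -0.24 (SE 0.12, quasi-likelihood adjusted p = 0.318), or -0.13 with the span trend removed. The records of EFEMP2 and MUS81, a nuclease gene on the other strand, overlap by 5265 bases, and the labels do not say whether counting used the strand. MUS81 itself had -0.36 (SE 0.13, quasi-likelihood adjusted p = 0.211), and its part in the value of EFEMP2 was not tested.

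Within a library, the ratio of EFEMP1 to EFEMP2 was 0.998, 1.18 and 1.91 in high libraries 1 to 3 and 0.615, 0.393 and 0.665 in low libraries 1 to 3. The groups did not overlap in this ratio, and its mean log2 value differed by 1.27. The pair was set side by side after its values were seen, and with 3 against 3 libraries an exact permutation test cannot go below p = 0.1, so no test is given.

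Fibulin-2 was listed without a symbol. The record ENSSSCG00000011609 (chromosome 13, 78256434 to 78359474), which the Ensembl name table calls FBLN2, is not among the 12 because its name is missing from the deposited table. It stood at 59.4, 108 and 102.7 CPM in high libraries 1 to 3 and at 54.5, 46.1 and 92.7 CPM in low libraries 1 to 3. The groups overlapped, and the log2 fold change was 0.47 (SE 0.34, quasi-likelihood adjusted p = 0.472).

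**Figure D3:**
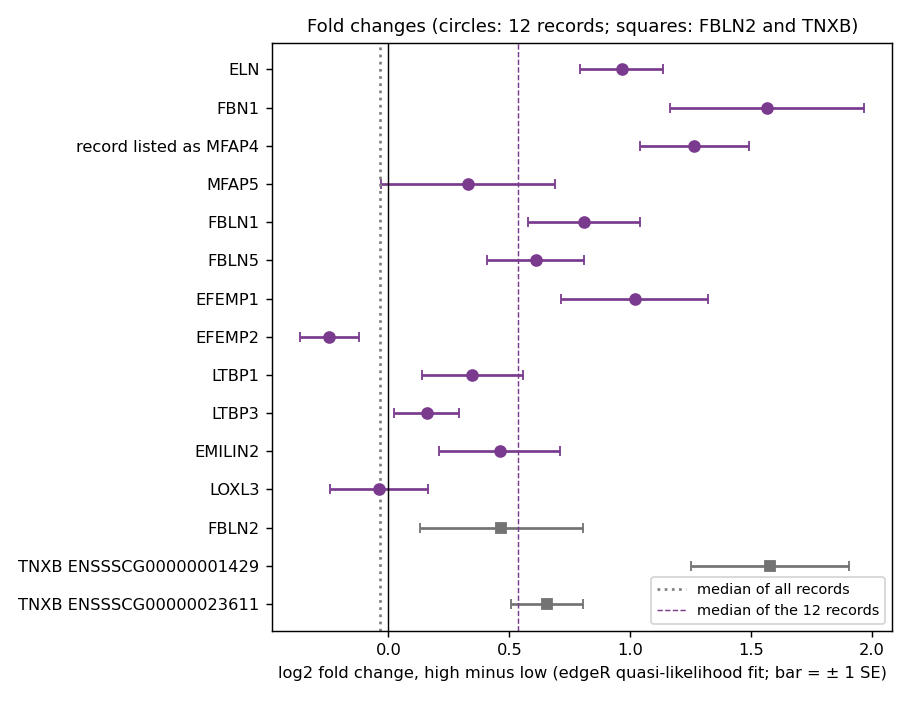
Log2 fold change, high minus low, ± 1 SE (horizontal axis, edgeR quasi-likelihood fit) of the 12 records (circles) and of FBLN2 and both TNXB records (squares). The dotted line marks the median of all records (-0.04) and the dashed line that of the 12 (0.53), and FBN1 (1.57) and EFEMP2 (-0.24) are the extremes among the 12.

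The latent TGF-beta binding proteins anchor the inactive TGF-beta complex to microfibrils. LTBP1 (ENSSSCG00000008510, chromosome 3, 113229601 to 113504003) stood at 47.3, 65.8 and 59.3 CPM in high libraries 1 to 3 and at 49.7, 34.8 and 51.03 CPM in low libraries 1 to 3. High library 1 lay below 2 low libraries, and the log2 fold change was 0.35 (SE 0.21, quasi-likelihood adjusted p = 0.392). LTBP1 has the longest span of the 12 records, 274 kb, and with the span trend removed its log2 fold change was 0.06. Without low library 2 it was 0.16. LTBP3 (ENSSSCG00000012985, chromosome 2, 5840778 to 5861803) stood at 39.9, 38.4 and 33.1 CPM in high libraries 1 to 3 and at 31.2, 36.2 and 33.9 CPM in low libraries 1 to 3. These groups overlapped too, with a log2 fold change of 0.16 (SE 0.13, quasi-likelihood adjusted p = 0.536), or 0.09 without high library 1.

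FBN1 and LTBP1 share the same kind of calcium-binding EGF-like and TGF-beta binding protein domains, and they differed in their fold changes. The ratio of FBN1 to LTBP1 was 2.41, 3.00 and 2.25 in high libraries 1 to 3 and 1.20, 0.683 and 1.27 in low libraries 1 to 3. Every high library lay above every low library in this ratio, which was chosen after its values were seen and is given without a test.

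EMILIN2, a glycoprotein found at the interface of elastin and microfibrils, had overlapping groups (ENSSSCG00000003694, chromosome 6, 96738829 to 96792567). It stood at 12.1, 18.98 and 13.96 CPM in high libraries 1 to 3 and at 8.19, 10.8 and 13.7 CPM in low libraries 1 to 3. On the log2 scale the fold change was 0.46 (SE 0.25, quasi-likelihood adjusted p = 0.355), or 0.73 without low library 3, 0.29 without high library 2 and 0.30 without low library 1. EMILIN2 and MFAP5 both had their lowest value in low library 1. In deposited CPM high library 2 was the highest of the 6 libraries for both, whereas after TMM normalisation, edgeR's scaling of libraries, low library 3 was the highest for MFAP5.

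LOXL3, a lysyl oxidase-like enzyme of matrix cross-linking, was the 1 lysyl oxidase among the 12 records (ENSSSCG00000008266, chromosome 3, 71672158 to 71690705). It stood at 15.3, 12.3 and 10.7 CPM in high libraries 1 to 3 and at 12.3, 16.99 and 10.9 CPM in low libraries 1 to 3, and the groups overlapped throughout. Between groups the log2 fold change was -0.04 (SE 0.20, quasi-likelihood adjusted p = 0.928), and its sign turned when the span trend was removed or when high library 2, high library 3 or low library 2 was left out. Its nearest listed neighbour, AUP1, lies on the same strand and had -0.08. LOX, LOXL1, LOXL2, LOXL4, FBN2, MFAP2, LTBP2, LTBP4, EMILIN1, EMILIN3 and FBLN7 were not matched by name to a record and are not analysed here.

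Libraries differed in a shared way across many of the 12 records, but not all. In low library 2, where most were low, LOXL3 and EFEMP2 deviated from their means by 0.29 and 0.004 in TMM-normalised log2 CPM. In deposited CPM, low library 2 held the lowest value of 6 records and high library 2 the highest value of 7. After TMM normalisation these counts were 7 and 4. The median deviation of the 12 records from their mean over all libraries, in TMM-normalised log2 CPM, was 0.23, 0.42 and 0.25 in high libraries 1 to 3 and -0.29, -0.61 and -0.02 in low libraries 1 to 3. Low library 3 thus lay nearest to the high group. For all records this median lay between -0.004 and 0.01 in each library. Summed over the 12 records, the level was 407, 565 and 468 CPM in high libraries 1 to 3 and 294, 231 and 325 CPM in low libraries 1 to 3. ELN, whose group order was set by the listing rule, is among the 12.

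**Figure D4:**
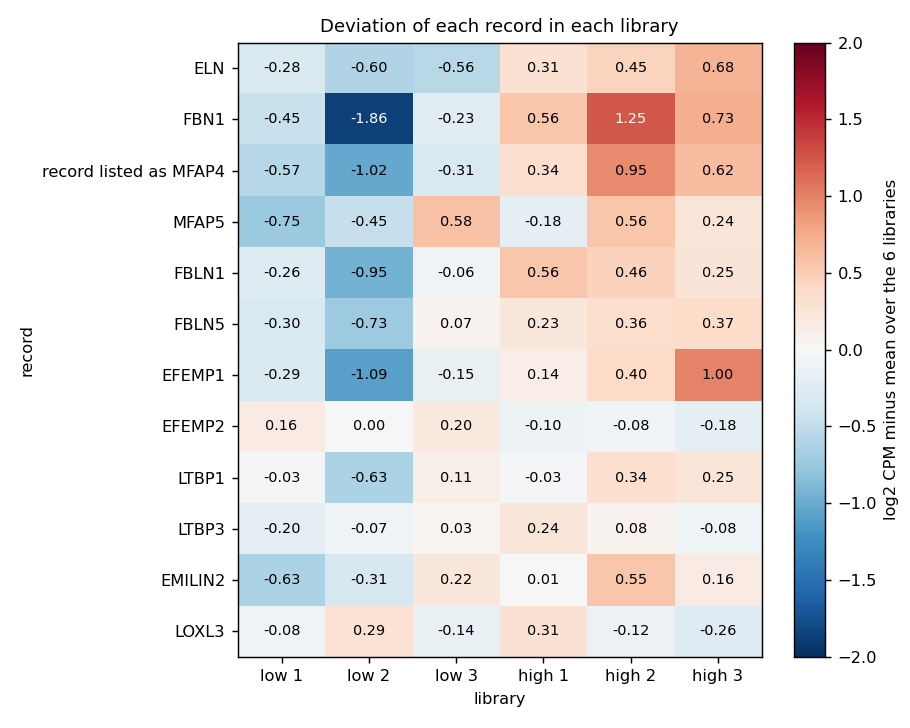
TMM-normalised log2 CPM of each of the 12 records (rows) in each library (columns) minus its mean over the 6 libraries, as colour and number. FBN1 spans the widest range, from -1.86 in low library 2 to 1.25 in high library 2, while EFEMP2 and LTBP3 stay within 0.24 of their mean.

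Several of the records varied together over the 6 libraries. FBN1 had a Pearson r of log2 CPM above 0.8 with 6 of the 11 others, among them 0.97 with FBLN5, 0.96 with FBLN1, 0.92 with LTBP1 and 0.90 with EFEMP1. The 6 include ELN, whose group order was set by the listing rule, and the record listed as MFAP4. No share over all records is given for this r. MFAP5 had 0.60 with FBN1 and 0.95 with EMILIN2. LOXL3 and EFEMP2 ran the other way, at -0.48 and -0.49 with FBN1, and ELN had -0.84 with EFEMP2. These values describe 6 points, at each of which the records share the depth of the library, and they include the difference between groups.

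Genes outside the families were compared with ELN and FBLN1 in the same way. The 5 records most like ELN were PLIN1 (r = 0.997), which coats the lipid droplets of adipocytes, TCF12 (0.996), GFAT1 (0.996), RYK (0.995) and FHL5 (0.995). PLIN1 stood at 27.2, 39.9 and 60.3 CPM in high libraries 1 to 3 and at 8.13, 5.10 and 5.81 CPM in low libraries 1 to 3, with high library 3 the highest, as for ELN, and like ELN it was listed through its high libraries alone. The 5 most like FBLN1 were HECTD2 (r = 0.996), the basement membrane collagen gene COL15A1 on its record ENSSSCG00000005380 (0.993), the fibrillar collagen gene COL3A1 (0.988), the laminin gene LAMC1 (0.987) and PGM5 (0.987). Each r is over 6 libraries and was picked as the highest among all records with a symbol.

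Partners of elastic fibre assembly were read from a list of 35 names, of which 20 were matched to 21 records. In edgeR's quasi-likelihood test 0 of 21 passed the threshold, 5 higher and 2 lower records had an unadjusted p under 0.05 (10.2% and 8.3% of all records), and DESeq2 called 5 (6.76% of all records) and the exact test 4 (4.12%). The 5 higher records and the 5 called by DESeq2 each include both TNXB records, which can share reads. The list median was 0.17. Apart from TNXB, the smallest p-values belonged to HSPG2, which encodes perlecan, a basement membrane proteoglycan that binds fibrillin, and to FN1, the fibronectin on which fibrillin assembles. HSPG2 stood at 218 ± 14.8 against 124 ± 29.3 CPM (log2 fold change 0.83, quasi-likelihood adjusted p = 0.112, or 0.0498 without low library 1). That fit called 30 records of the whole table, and HSPG2 did not pass with any other library left out. FN1 stood at 334 ± 129 against 132 ± 43.9 CPM (1.32, quasi-likelihood adjusted p = 0.142).

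TGF-beta release and response genes came from a list of 40 names, 25 of them matched to 26 records. None of the 26 passed in edgeR's quasi-likelihood test, 8 higher and 1 lower had an unadjusted p under 0.05 (10.2% and 8.3% of all records), and DESeq2 called 8 (6.76% of all records) and the exact test 5 (4.12%). These counts of higher and called records include ITGA8, which was listed through its high libraries alone, so that its direction was set by the listing rule. The median was 0.22, and also 0.22 over the 25 records without ITGA8. The lower record was BMP1 (-0.73, SE 0.21, quasi-likelihood adjusted p = 0.160), which was also among the 8 called by DESeq2 (DESeq2 adjusted p = 0.0419). It was the 1 record of the 26 with high libraries wholly below low ones (13.7% of all records). CTGF, a matricellular protein and target of TGF-beta, stood at 168 ± 19.4 against 99.6 ± 15.6 CPM (0.78, quasi-likelihood adjusted p = 0.1002). The receptor gene TGFBR1 had 0.75 and 0.79 on its 2 records, which can share reads, and the co-receptor gene TGFBR3 had 0.87 (quasi-likelihood adjusted p = 0.108, 0.124 and 0.134). The ligand TGFB1 stood at 13.7 ± 3.45 against 13.8 ± 2.71 CPM, and LTBP1 and LTBP3, whose proteins hold latent TGF-beta, had overlapping groups as given above.

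Elastin-degrading enzymes and their inhibitors came from a list of 23 names, 8 of them matched to 1 record each. In edgeR's quasi-likelihood test 0 of 8 passed, 1 higher record had an unadjusted p under 0.05, and DESeq2 and the exact test called 1 each. With 10.2%, 6.76% and 4.12% of all records past these thresholds, 1 of 8 says little about the list. That record was TIMP3, the matrix-bound inhibitor that binds fibulin-3. It stood at 55.8 ± 9.15 against 25.4 ± 5.81 CPM (1.14, SE 0.21, quasi-likelihood adjusted p = 0.0921), without overlap of the groups. MMP14, MMP2 and CTSK, proteases that act on the matrix, had 0.40, 0.29 and 0.18, and the list median was 0.06. The other 4 records had negative fold changes, CTSL1 -0.17, CTSS -0.25, CTSB -0.13 and CST3 -0.05.

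Markers of the cell types that could supply these transcripts were measured beside them. The 14 fibroblast records came from 11 names, with TNXB, COL1A1 and COL1A2 on 2 records each that can share reads. Of the 14 records, 14 had a positive fold change (45.2% of all records) and 9 had high libraries wholly above low ones (10.4% of all records), with a median of 0.77. Their summed level was 3421 to 4493 CPM in the high and 1630 to 2867 CPM in the low libraries, lowest in low library 2. Of 14 smooth muscle and pericyte records, 7 had a positive fold change and the median was 0.01, with sums of 3071 to 4239 CPM and 3209 to 4829 CPM, and the highest of these markers, DES, is also made by muscle fibres. The 14 came from 12 names, with PDGFRB and NOTCH3 on 2 records each that can share reads. High libraries lay wholly above low ones in 3 of these 14 records (10.4% of all records), MYH11, ABCC9 and RGS5. ABCC9 had 0.83 and RGS5 0.74 (quasi-likelihood adjusted p = 0.160 and 0.212). The smooth muscle myosin MYH11 had the largest fold change of the 14, 0.98 (SE 0.22, quasi-likelihood adjusted p = 0.116). The smooth muscle markers ACTA2, SMTN, TAGLN and CNN1 had 0.45, 0.05, -0.03 and -0.31, each with overlapping groups. Endothelial markers had a median of -0.07 over 9 records, with sums of 430 to 528 CPM in the high and 379 to 538 CPM in the low libraries. Adipocyte markers had a median of 1.14 over 10 records, 3 of which (PLIN1, CIDEA and CIDE-C) were listed through their high libraries alone, and the other 7 had a median of 0.93. Of these 7, 5 had a positive fold change (3391 of the other 7590 records). High libraries lay wholly above low ones in 3 of the 7 (9.6% of the other 7590 records). AQP7 and CFD had negative fold changes, -0.66 and -0.24. For AQP7 the high libraries lay wholly below the low ones (13.7% of all records). PLIN1 was the 1 adipocyte record called (2.75, quasi-likelihood adjusted p = 0.0409). The adipocyte sums were 864 to 1028 CPM in the high and 704 to 795 CPM in the low libraries. GPD1, an enzyme gene that muscle fibres also express, made up most of them (log2 fold change 0.13), and without it the sums were 236 to 423 CPM and 168 to 194 CPM. The sums with and without GPD1 include PLIN1, CIDEA and CIDE-C, whose order of groups was set by the listing rule. The difference between the groups in these sums was therefore set in part by that rule. Tendon and chondrocyte markers were matched in 2 of 10 names, FMOD (0.87) and THBS4 (0.26), with sums of 103 to 122 CPM and 74.9 to 112 CPM. No matched marker was at 0, because the table holds no such record. The part of any of these cell types in the values of the 12 records was not tested.

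With any 1 library left out, 11 of the 12 records kept the sign of their fold change, and LOXL3 was the exception. ELN, FBN1, the record listed as MFAP4, FBLN1, FBLN5 and EFEMP1 kept positive fold changes of at least 0.43 in all such fits. EFEMP2 kept a negative one, between -0.30 and -0.20. For ELN the listing rule set the direction beforehand, so its constant sign and its p-values in these fits are no independent support. None of the 12 passed the threshold in any of these fits. The smallest quasi-likelihood adjusted p among them was 0.0590, for ELN, where the adjusted p ranged up to 0.289.

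**Figure D5:**
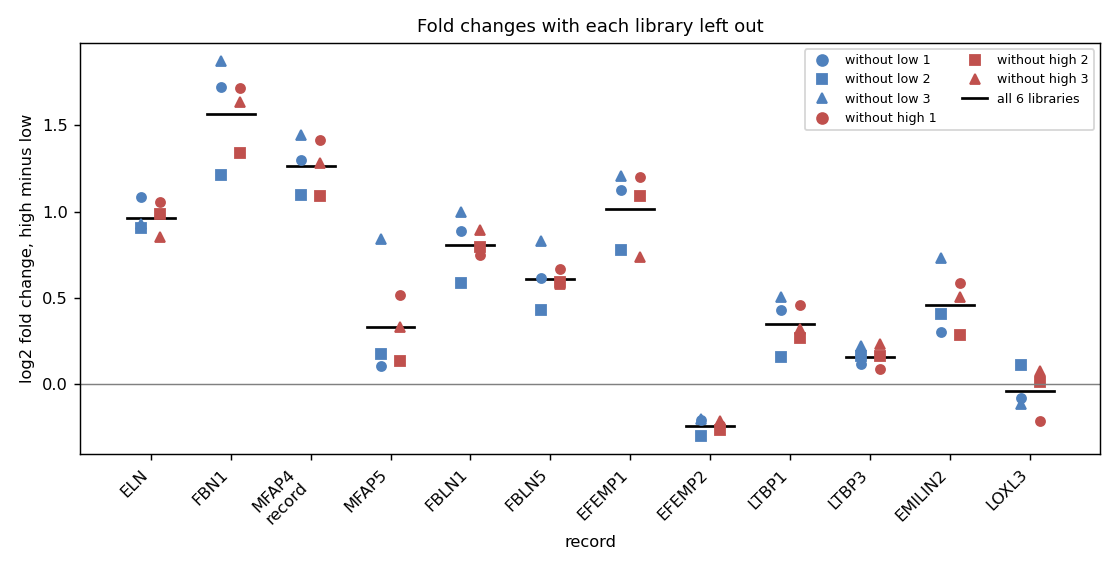
Log2 fold change, high minus low (vertical axis), of the 12 records with all 6 libraries (black lines) and with each library left out (symbols: colour gives the group and shape the number of the library left out). FBN1 ranges from 1.21 to 1.87 and MFAP5 from 0.10 to 0.84, while ELN stays between 0.86 and 1.08 and EFEMP2 below 0.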

How the data were processed

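Transcripts of longissimus muscle were measured by RNA sequencing of 6 libraries (3 high, 3 low). The submitters' processing notes name TopHat2 2.0.4, BWA 0.6.2, Trimmomatic 0.22 and FastQC 0.10.1 with no roles. The read counter, genome build and strand setting were not given in the sources used here. The authors deposited raw counts per gene and CPM, the count per 1e+06 reads of the library. The authors' deposited log2 fold changes, which run low over high, were turned around, and the deposited p-values and their false discovery rates were left as they are. edgeR's exact test gave the same fold changes to within 2.85e-08.

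Counts were fitted with edgeR 4.0.16 (R 4.3.3): library sizes recovered from the deposited CPM, TMM, filterByExpr (no record removed), quasi-likelihood test, Benjamini-Hochberg adjustment over 7661 records, threshold 0.05. A standard error is the size of the fold change over the square root of F. Levels are deposited CPM, mean ± SD. Tests were two-sided. Whether the 3 libraries per group are separate litters or lots is not given, so p-values measure the spread between these samples.

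The members and the 8 gene lists were chosen with earlier results of these data known. All records found by the member rule were named, with up to 4 records per pathway list by unadjusted p, and the 5 records most correlated with ELN and with FBLN1 (TMM log2 CPM, prior count 2). Further genes of those lists (TGFB1, ITGA8, BMP1, CTSL1, CTSS, CTSB, CST3, MYH11, ABCC9, RGS5, PDGFRB, NOTCH3, ACTA2, SMTN, TAGLN, CNN1, DES, AQP7, CFD, FMOD, THBS4) and the neighbours of members were named after their values were seen. The span trend was removed with a lowess fit (span 0.3) of each library's deviation from the mean log2 CPM on log10 genomic span. Alternatives used DESeq2 1.42.0 and limma 3.58.1 (voom). Names came from the deposited table (6417 records) and, where it gave none, from an Ensembl name table, which held 5336 of the 7661 identifiers. RefSeq (Sscrofa11.1) served for gene neighbours alone. A result on a further neighbouring gene is not reported here. Each test was tested on simulated data. No sequences were used here.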

Additional observations from a re-analysis of the deposited data

How the results depend on the processing

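With 3 libraries per group the calls depended on the test. The 0 records called among the 12 became 5 in DESeq2 and 4 in edgeR's exact test, the 0 of the 3 pathway lists became 14 and 10, and the 11 called in the whole table became 518 and 316. Of the 14 pathway records called by DESeq2, 13 were higher and 1 was lower in the high group. With limma-voom, DESeq2 size factors, removal of the span trend or library sizes without the 35 mitochondrially encoded genes, 0 of the 12 were called. With no filter or with a minimum mean CPM of 5, the fit held the same 7661 records as the main one. Those 2 settings repeat the main fit, so their equal result was fixed beforehand. With each library left out, 0 to 0 of the 12 were called, 0 to 1 in the pathway lists (HSPG2, without low library 1) and 1 to 30 in the whole table (30 without low library 1, 1 without low library 2, 4 without high library 1 or 2, 5 without high library 3). The median of the 12 lay between 0.42 and 0.83, the latter without low library 3, and records without overlap in either direction numbered 7 to 9 (32.5% to 39% of all records, against 24.2% with all libraries). TMM-normalised CPM and leaving out the record listed as MFAP4 were chosen after seeing the data, and 7 of 12 did not overlap in the former (26.8% of all records). LOXL3 turned sign with the span trend removed (0.020) and ran from -0.21 to 0.11 with each library left out, above 0 without high library 2 (0.014), high library 3 (0.08) or low library 2 (0.11). The cause of these differences was not tested.

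With the replicate number as a block, 2 records of the table were called and 0 of the 12, with a median of 0.56. The labels do not say that a number marks a shared origin, and deviations of libraries with the same number correlated at 0.12, 0.03 and -0.08, so the numbers were not taken as pairs; 2 of the 6 libraries correlated best with their own number. Counting error was at most 7.25% of any value of the 12 records, that of ELN in low library 3.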
